A study of Mus musculus with 16 samples.

Results

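Ethinylestradiol was set against no estrogen in the livers of mice that all received MI763F, a ligand of the nuclear receptor CAR. The comparison takes 8 of the 16 RNA-seq libraries of the study and covers 12918 of the 13006 genes in its table, those that passed a filter on low counts. The EM group (4 libraries) received ethinylestradiol at 10 mg/kg by subcutaneous injection in propylene glycol for 7 days, with MI763F at 2.5 mg/kg by oral gavage for 6 days from day 2. The CM group (4 libraries) received the same MI763F course and no ethinylestradiol. The same estrogen contrast without the ligand was read in the other 8 libraries, with ethinylestradiol and no MI763F in the EV group (4 libraries) and propylene glycol as vehicle in the CV group (4 libraries). Every mouse, controls included, carried the genotype that the labels call Humanized PXR-CAR-CYP3A4/3A7, a name that refers to the human genes for the receptors PXR and CAR and for CYP3A enzymes. The labels give neither sex nor age, do not state whether the mice were pregnant, do not tie libraries to animals, and do not say whether CM mice were injected with propylene glycol or whether EV and CV mice were gavaged with the MI763F vehicle. With no animals tied to libraries, p-values measure the spread between these libraries.

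Bile acids are made from cholesterol in hepatocytes, conjugated there, and pumped into bile. Cyp7a1 opens the classical route, Cyp8b1 directs it toward cholic acid, and Cyp27a1 and Cyp7b1 serve the alternative route; the transporters Slc10a1 (NTCP) and Abcb11 (BSEP) take bile acids up from blood and export them to bile. CAR and PXR are xenobiotic receptors whose targets oxidise, sulfate, glucuronidate and export bile acids and steroids. High doses of ethinylestradiol impair bile flow in rodents and serve as a model of the cholestasis that can occur in pregnancy.

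The libraries held between 14571791 and 20040199 estimated counts in the EM group and between 15164175 and 21473227 in the CM group. In a principal component analysis of the 8 libraries, the first component carried 48.6% of the variance and separated the EM livers, at 45.7 to 71.9, from the CM livers, at -64.0 to -41.4. CM replicate 2 stood apart on the second component (11.2% of the variance), at -64.1, against 7.88 to 32.3 for the other CM livers. EM replicate 1 lay nearest the EV livers on the first component of all 16 libraries, at 62.6, against 37.1 to 46.7 for the other EM livers and 66.7 to 75.4 for the EV livers. The composition factors that scale the libraries (TMM) also differed by group, at 1.10 to 1.13 in EM livers and 0.833 to 0.886 in CM livers. Scaling by library totals in their place moved the median log2 fold change of all genes from 0.00 to 0.38, so that the changes below are relative to the typical gene. Hepatocyte markers were abundant, as in the labelled tissue: Alb, Ttr, Apoa1 and the rest of that list of 12 summed to between 51271 and 65538 CPM (estimated counts relative to the TMM-scaled library total) in EM livers and between 102006 and 129703 CPM in CM livers.

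With MI763F given throughout, ethinylestradiol shifted much of the liver's RNA in both directions under TMM scaling. Most measured macrophage, replication and chaperone genes rose, although only 13 of 28 replication genes did so without EM replicate 1. Most genes of bile acid handling, CAR and PXR targets and plasma protein genes fell. Under library totals, 6 of 18 bile acid synthesis genes and 8 of 16 transporter genes fell. At an adjusted p under 0.05 (edgeR, quasi-likelihood, Benjamini-Hochberg), 4917 genes were called, 38.1% of those tested, of which 2509 (19.4%) were higher and 2408 (18.6%) were lower in EM livers. At least 2-fold changes were called for 1868 genes (14.5%), 1241 (9.61%) of them higher and 627 (4.85%) lower. EM and CM libraries did not overlap in CPM for 4579 genes (35.4%). Under library totals 6824 genes were called and 86.3% of them were higher, against 51.0% under TMM, so the balance of rises and falls depends on the scaling.

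Nearly all genes called with and without the ligand moved the same way. Without MI763F, EV against CV called 6513 genes (50.4%), 3291 higher and 3222 lower. These are other libraries than those of EM against CM. Of the genes called in both comparisons, 4252 moved the same way and 9 moved opposite ways; the shared ones are 86.5% of the EM against CM calls and 65.3% of the EV against CV calls. The 3291 genes higher in EV livers had a median log2 fold change of 0.71 in EM against CM and 1.01 in EV against CV, and 96.2% of them had a positive sign in EM against CM. The 3222 genes lower in EV livers had medians of -0.51 in EM against CM and -0.77 in EV against CV, with 96.6% negative in EM against CM. Since genes were picked on EV and CV libraries, some shrinkage in the other pair is built in. Read the other way, the genes changed at least 2-fold in EM against CM were larger in EV against CV for 1337 of 1868, with a median ratio of 1.18 between the log2 fold changes. Across the 12918 genes the Pearson correlation of the fold changes was 0.72, a description over genes that share libraries and are not independent replicates.

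**Figure D1:**
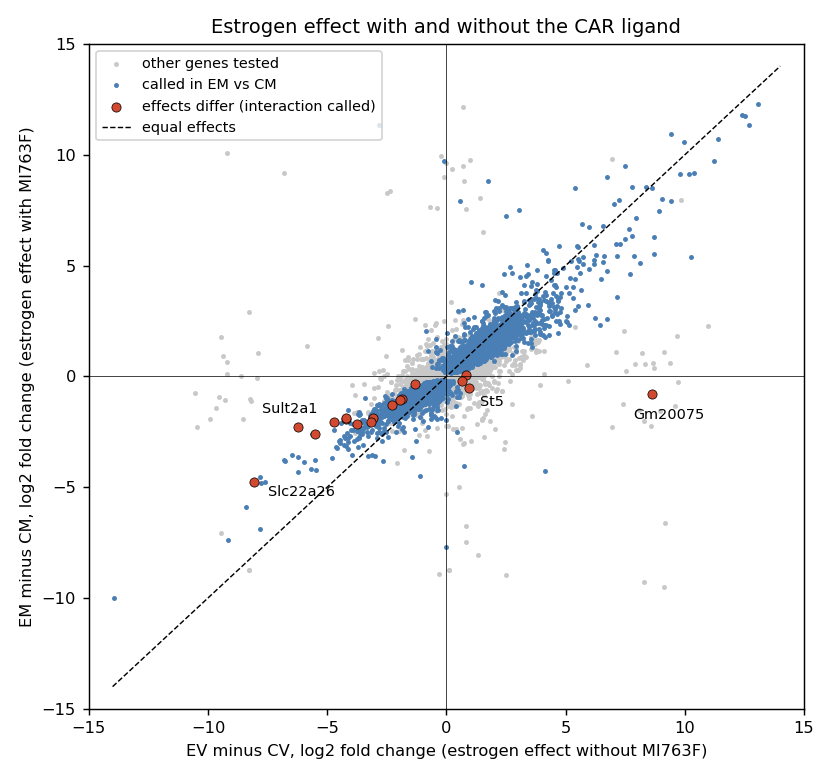
Log2 fold change of each of the 12918 genes in EM minus CM (vertical) against EV minus CV (horizontal), with genes called in EM against CM in blue, the 17 genes whose effects differ in red, and equal effects on the dashed line. Most blue points follow the diagonal, and all 17 red points lie nearer to 0 on the vertical axis than on the horizontal one.

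A test of the difference between both estrogen effects, (EM minus CM) minus (EV minus CV), called 17 genes (0.132%). For 13 of them (0.101%) the difference was positive and for 4 (0.031%) negative, and all 17 had the smaller effect with MI763F. At an unadjusted p under 0.05 there were 1759 of the 12918 genes tested, beside 5985 for EM against CM. DESeq2 called 298 positive and 152 negative differences. A gene without a call is therefore not shown to have equal effects. The number called rested on single libraries, since 157 positive and 51 negative differences were called without EM replicate 1, and 66 and 29 without CM replicate 4. Positive differences numbered 7 or 8 without EV replicate 1, EV replicate 2 or EM replicate 4 and 24 without EV replicate 3. Negative ones numbered 2 without EV replicate 1 or EM replicate 4 and 8 to 11 without CV replicates 2, 3 or 4, CM replicate 3 or EM replicate 2.

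Sulfotransferases of the Sult2a family, which in mice sulfate bile acids and hydroxysteroids and so ease their excretion, made up 5 of the 13 positive differences. Sult2a5 had 42.6, 74.6, 101 and 70.9 CPM in EM livers, against 362, 493, 489 and 413 CPM in CM livers. The EM livers were all below the CM livers, by a log2 fold change of -2.61 ± 0.20 (SE). Without the ligand Sult2a5 had 7.75, 7.25, 9.12 and 8.35 CPM in EV livers, against 396, 403, 311 and 358 CPM in CV livers, a log2 fold change of -5.50; the difference between the effects was 2.89 ± 0.28 (adjusted p = 4.14e-04). Sult2a1 had 89.8, 523, 559 and 445 CPM in EM livers, against 1707, 2309, 2129 and 1839 CPM in CM livers. EM replicate 1 was the low one, and no EM liver reached the CM range. Its log2 fold change was -2.30 ± 0.41 in EM against CM and -6.21 in EV against CV, where EV livers held only 25.8, 12, 21.4 and 24.5 CPM, and the effects differed by 3.91 ± 0.58 (adjusted p = 0.0139). Sult2a2, Sult2a4 and Sult2a6 had differences of 2.28, 2.34 and 2.63, and they also fell in EM livers, with log2 fold changes of -1.94, -1.87 and -2.06. These family members are close copies, so how reads were split among them is uncertain. The Sult2a4 difference lost its call without CM replicate 1, EV replicate 1, EM replicate 3 or EM replicate 4 (adjusted p up to 0.0661), while those of Sult2a1, Sult2a2, Sult2a5 and Sult2a6 kept it in every such fit.

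Slc22a26, Ces1c and Ces1d also fell less with the ligand. Slc22a26, an organic anion transporter family member, had 3.84, 10.5, 8.97 and 4.08 CPM in EM livers, against 209, 121, 225 and 182 CPM in CM livers, a log2 fold change of -4.75 ± 0.32 in EM against CM and -8.09 in EV against CV (difference 3.34 ± 0.49, adjusted p = 0.0122). Ces1c and Ces1d, carboxylesterases that hydrolyse esters of lipids and drugs, fell by 1.88 and 2.14 on the log2 scale in EM livers and fell by 3.08 and 3.76 in EV livers. The Ces1c difference lost its call without EV replicate 2 (adjusted p = 0.0553), and that of Ces1d without CM replicate 1, EV replicates 1 or 2, or EM replicates 3 or 4 (adjusted p up to 0.0850). Among the negative differences, St5 went opposite ways: it had 25.5, 22.4, 21 and 24.7 CPM in EM livers, against 27.6, 36.4, 35 and 34.1 CPM in CM livers, a log2 fold change of -0.51 (adjusted p = 0.00525), whereas EV livers were higher than CV livers by 0.96. The difference for St5 was -1.46 ± 0.18 (adjusted p = 0.00248), and under library totals its fall in EM livers lost the call. Ufm1, a ubiquitin-like modifier, and Myl12b, a myosin light chain, were not called in EM against CM (log2 fold changes of -0.22 ± 0.11 and 0.08 ± 0.09, SE) and were higher in EV livers by 0.63 and 0.83. In EM against CM, Myl12b was called under library totals (0.45, adjusted p = 9.53e-04) and Ufm1 without EM replicate 3 (-0.30, adjusted p = 0.0473). The Myl12b difference lost its call without CM replicate 1, EV replicate 1 or EM replicate 4, and that of Ufm1 did so with RLE factors and when most single libraries were left out, with CV replicate 2, CM replicates 3 and 4 and EM replicates 1 and 3 the exceptions. Gm20075, a gene model of low level singled out after its values were seen, was listed at 0 in every CV library and had 1.65 to 3.91 CPM in CM livers, so its effects are set against unlike control levels.

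The 250 bases upstream of the annotated start are shown for the genes with an entry in RefSeq (GRCm38.p6) that lead the result above, Sult2a5, and the largest rises and falls described next, 5′ to 3′ on the gene's strand, with capitals marking TATAAA.
Sult2a5, chr7:13623717-13623966, plus strand: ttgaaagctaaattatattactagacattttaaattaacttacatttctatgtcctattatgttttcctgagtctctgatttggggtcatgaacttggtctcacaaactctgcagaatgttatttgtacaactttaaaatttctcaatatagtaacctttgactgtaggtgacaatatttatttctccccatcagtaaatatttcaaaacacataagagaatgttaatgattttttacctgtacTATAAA
Krt79, chr15:101940325-101940574, minus strand: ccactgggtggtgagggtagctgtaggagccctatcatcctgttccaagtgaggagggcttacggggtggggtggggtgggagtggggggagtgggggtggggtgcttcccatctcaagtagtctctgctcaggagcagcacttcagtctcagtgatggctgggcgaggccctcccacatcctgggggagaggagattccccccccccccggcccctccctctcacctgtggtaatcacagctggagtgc
Trex2, chrX:73435344-73435593, minus strand: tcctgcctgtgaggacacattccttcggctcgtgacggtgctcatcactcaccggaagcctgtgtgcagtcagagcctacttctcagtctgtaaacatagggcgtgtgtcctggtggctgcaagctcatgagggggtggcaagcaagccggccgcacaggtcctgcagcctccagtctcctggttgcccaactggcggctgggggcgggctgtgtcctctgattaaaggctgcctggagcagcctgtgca
Cyp8b1, chr9:121916306-121916555, minus strand: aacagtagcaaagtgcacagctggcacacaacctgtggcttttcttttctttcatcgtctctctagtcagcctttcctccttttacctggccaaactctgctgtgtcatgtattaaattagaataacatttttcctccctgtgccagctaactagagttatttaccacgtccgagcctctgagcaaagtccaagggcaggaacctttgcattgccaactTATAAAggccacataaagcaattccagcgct
The Sult2a5 and Cyp8b1 stretches each held TATAAA, and those of Krt79 and Trex2 did not. Searched on both strands, TATAAA was found in 6.83% of the 9446 upstream stretches available for tested genes. None of the 4 held AGGTCA, the half-site shared by many nuclear receptors, on either strand, a motif found in 11.1% of the 9446. A match or its absence describes only these letters in this window. Fewer than 80% of tested genes had an entry, so motif shares of the called gene sets are not reported here.

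A small set of genes was at or near 0 in CM livers and plainly present in EM livers. Trex2, a 3′ exonuclease best known from the epidermis, had 42.1, 33.2, 32.6 and 36.8 CPM in EM livers and 0 in every CM liver. Against a floor of 3 counts per CM library, that is at least 179-fold higher in EM livers. Krt4, a keratin of stratified epithelia, had 281, 197, 141 and 188 CPM in EM livers, against 0, 0.0641, 0.0772 and 0.0526 CPM in CM livers; its 15179 counts in EM livers stand against 3 in CM livers, a ratio of 4040 with an exact 95% interval of 1382 to 19590. Krt79, a keratin of hair follicle and sebaceous gland epithelium, had 76.7, 87.8, 85.8 and 98.7 CPM in EM livers, against 0.0751, 0.0641, 0 and 0.0526 CPM in CM livers, a ratio of 1769 with an interval of 605 to 8580. The intervals cover counting error only and are approximate, because the deposited counts look rescaled by gene length. The naming rule for the largest rises required EM and CM libraries that do not overlap, so the lack of overlap is no separate result. The log2 fold changes of Krt4 and Krt79 in EV against CV were 12.39 and 9.97.

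Slc34a2, a sodium-phosphate cotransporter of lung and intestine, had 54.6, 245, 47.2 and 48.4 CPM in EM livers, against 0.150, 0.192, 0.617 and 0.158 CPM in CM livers, with EM replicate 2 far above the other EM livers. Isyna1, the enzyme that makes inositol phosphate from glucose phosphate, had 917, 927, 675 and 828 CPM in EM livers, against 31.6, 9.75, 11.1 and 3.68 CPM in CM livers, a log2 fold change of 5.91 ± 0.66 (adjusted p = 1.49e-05). The remaining large rises by the naming rule were Myo15b, Gm12248, Gm6135, Ovgp1 (an oviductal glycoprotein), Rgs7bp, Chst8 and Tff3, with log2 fold changes between 5.97 and 7.96. Tff3, a secreted trefoil peptide, was at 0 in all CM livers but replicate 2, which held 4.36 CPM, so the size of its fold change rests on that library. None of these genes had a called difference between the estrogen effects with and without MI763F. For genes near 0 in CM and CV livers that test is imprecise, with an SE of 1.44 for Slc34a2 and 1.51 for Tff3 on the log2 scale. The lack of a call therefore does not show equal effects.

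At the other end, several genes were far lower in EM livers. The naming rule for the largest falls also required EM and CM libraries that do not overlap. Hsd17b6, which acts on androgens and retinol, had 0.694, 2.13, 3.37 and 2.42 CPM in EM livers, against 165, 435, 165 and 274 CPM in CM livers, a log2 fold change of -6.89 ± 0.49 (adjusted p = 3.12e-07). Rgs16, a regulator of G protein signalling, Acot3, a peroxisomal thioesterase, and Slc22a7, an organic anion transporter, had log2 fold changes of -5.90, -4.16 and -3.76. Hamp2, a paralog of the iron hormone hepcidin, had 12, 22.1, 34.4 and 16.2 CPM in EM livers, against 65.9, 155, 377 and 1387 CPM in CM livers, which varied widely. Scd1, the desaturase that makes oleate, had 28.7, 19.5, 104 and 105 CPM in EM livers, against 850.1, 594, 534 and 1560.0 CPM in CM livers. Gm44787, the other named gene here, fell by 3.86.

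Bile acid synthesis moved unevenly with estrogen. Of 18 measured genes of synthesis and conjugation, 1 rose and 12 fell, with a median log2 fold change of -0.52, beside 0.00 over all genes; in EV against CV the counts were 1 and 14. Under library totals only 6 fell and 2 rose. The gene that rose was Cyp7b1, the oxysterol hydroxylase of the alternative route, with 966, 839.6, 775 and 917 CPM in EM livers, against 21.5, 18.5, 27.5 and 24.9 CPM in CM livers. That is a log2 fold change of 5.24 ± 0.18 (adjusted p = 6.29e-11), with the libraries tight within each group. Cyp8b1 had 5.93, 2.13, 8.93 and 8.70 CPM in EM livers, against 98.4, 48.7, 291 and 85.3 CPM in CM livers. No EM liver overlapped a CM liver, and the log2 fold change was -4.33 ± 0.59 (adjusted p = 7.24e-05).

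Cyp7a1, the rate-limiting enzyme of the classical route, was not called. It had 13, 12.7, 36 and 26.2 CPM in EM livers, against 14.7, 6.99, 30.2 and 58.2 CPM in CM livers, and the groups overlapped, with a log2 fold change of -0.33 ± 0.70 (SE, adjusted p = 0.751). CM livers themselves spread widely, and the error leaves room for a change of either sign. Without the ligand Cyp7a1 fell, with 1.62, 5.98, 14.1 and 1.16 CPM in EV livers, against 76.7, 60.4, 46.3 and 66.2 CPM in CV livers, a log2 fold change of -3.47; the difference between the effects, 3.14 ± 1.03, was not called (adjusted p = 0.187). Cyp27a1, which starts the alternative route, was not called either, with a log2 fold change of -0.20 ± 0.15 (adjusted p = 0.31). The conjugation and activation enzymes Slc27a5 (bile acid CoA ligase) and Slc27a2 (a very long chain acyl-CoA synthetase) fell by 1.70 and 1.08. Slc27a5 had 137, 162, 195 and 213 CPM in EM livers, against 511, 464, 683 and 641 CPM in CM livers, without overlap.

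**Figure D2:**
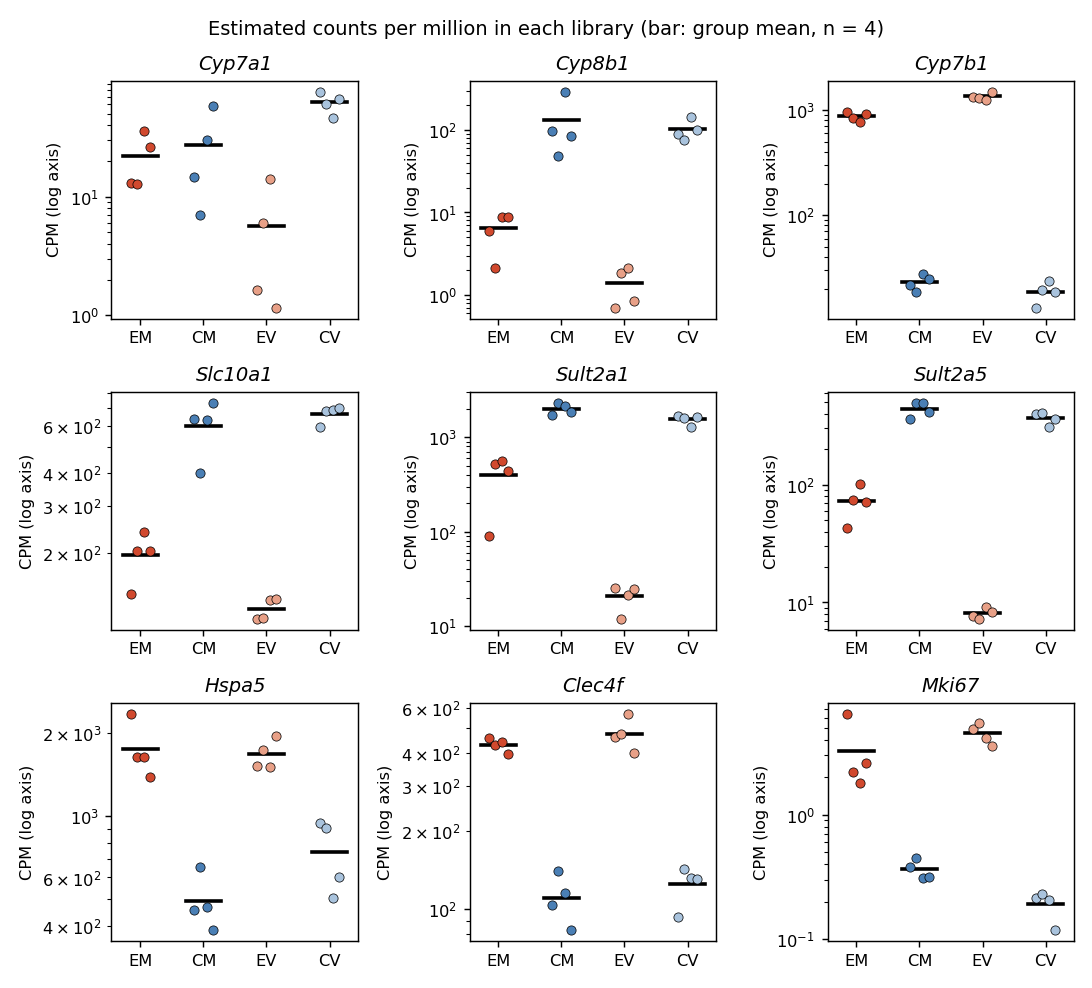
CPM of 9 genes in each library on log axes, with the groups EM, CM, EV and CV from left to right, 1 point per library and a bar at each group mean (n = 4). Cyp7b1 is higher and Cyp8b1 lower in EM than in CM without overlap, Cyp7a1 overlaps, and Sult2a1 and Sult2a5 in EM lie between the EV and the CM livers.

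Transport genes fell on both membranes of the hepatocyte. Of 16 measured transporters of bile acids, phospholipids and organic anions, 11 fell and 1 rose, with a median of -0.78. Under library totals 8 fell and 2 rose. EV against CV gave 13 falls and 2 rises. Slc10a1, the main uptake transporter for conjugated bile acids, had 141, 204, 239 and 204 CPM in EM livers, against 636, 401, 632 and 734 CPM in CM livers, a log2 fold change of -1.61 ± 0.17 (adjusted p = 7.10e-06). Every EM liver lay below every CM liver. Abcb11, the bile salt export pump, had 145, 151, 176 and 182 CPM in EM livers, against 207, 287, 320.4 and 351 CPM in CM livers, a log2 fold change of -0.83 (adjusted p = 0.00148), again without overlap. Abcc2, which exports glucuronides and other conjugates to bile, and Slco1a4, an organic anion uptake transporter, had log2 fold changes of -1.10 and -1.62. In EV against CV the same 4 genes had -2.44, -1.32, -1.47 and -2.28, and no difference between these effects was called (lowest adjusted p = 0.142, for Slc10a1).

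Of 18 receptors and partners that sense bile acids and xenobiotics, 13 fell and none rose, with a median of -0.53; under library totals 8 fell and 1 rose. Nr1h4, the bile acid receptor FXR, had 81.1, 89.8, 108 and 89.8 CPM in EM livers, against 114, 78, 115 and 109 CPM in CM livers and was not called (adjusted p = 0.329). Its repressor target Nr0b2 (SHP) was not called either, at 51.5 ± 12.6 CPM in EM livers and 68.9 ± 29.6 CPM in CM livers (SD, n = 4 each). Klb and Fgfr4, the coreceptor and receptor for the intestinal hormone FGF15, fell by 1.40 and 1.31, and Klb had 3.68, 4.27, 6.70 and 5.53 CPM in EM livers, against 14.1, 11.5, 11.1 and 16.9 CPM in CM livers. Rxra, the common partner of these nuclear receptors, fell by 0.64. The mouse entry for CAR, Nr1i3, had 10.6, 17.3, 19 and 14.3 CPM in EM livers, against 31, 20.2, 34.6 and 32.6 CPM in CM livers and fell by 0.95 (adjusted p = 0.00207). The mouse entry for PXR, Nr1i2, had a log2 fold change of -0.33 ± 0.09 (adjusted p = 0.0125), which turned to 0.05 under library totals. What the mouse entries for these receptors count in humanized animals is not stated in the labels or the file headers.

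The table also holds 3 entries with human-format identifiers, whose gene names are not annotated in the files and are not given here. ENSG00000143257 had 56.5, 98, 96.4 and 86.9 CPM in EM livers, against 254, 120.0, 226 and 215 CPM in CM livers and fell by 1.27 (adjusted p = 2.45e-04). ENSG00000144852 had 52.8, 58, 50.6 and 48.6 CPM in EM livers, against 73, 60.8, 66.2 and 71.8 CPM in CM livers and a log2 fold change of -0.37 ± 0.10 (adjusted p = 0.00641), which was 0.00 under library totals. ENSG00000160868 had 1319, 2002, 2173 and 2106 CPM in EM livers, against 1950.5, 4363, 3381 and 2959 CPM in CM livers; the groups overlapped and the gene was not called (log2 fold change -0.74 ± 0.35, adjusted p = 0.11), although it was when only EM and CM libraries were fitted (adjusted p = 0.0483). The EM livers were below every CM liver for the first and second of these, and EM replicate 1 was the lowest EM liver for the first and the third.

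Most measured targets of CAR and PXR fell with estrogen, with the CAR ligand given to both groups. Of 36 measured targets, 24 fell and 3 rose, with a median of -1.22, against 24 and 4 in EV against CV, where the median was -1.68. Cyp2b10, the cytochrome that CAR activation is best known for, had 294, 260.0, 256 and 324 CPM in EM livers, against 764, 1691, 919.8 and 808 CPM in CM livers. All EM livers were below all CM livers, and CM replicate 2 was the highest; the log2 fold change was -1.88 ± 0.26 (adjusted p = 4.93e-05). Cyp2c29 had 4003, 3987, 5274 and 5977 CPM in EM livers, against 7796, 15506, 9892 and 8535 CPM in CM livers, a log2 fold change of -1.12 (adjusted p = 4.36e-04), where EV against CV was not called at -0.32; the difference was not called either (adjusted p = 0.208). Cyp2c37, of the same subfamily, fell by 2.41. Ugt1a1, which glucuronidates bilirubin and estrogens, had 213, 412, 430.4 and 368 CPM in EM livers, against 749, 757, 932 and 728 CPM in CM livers, a log2 fold change of -1.15 (adjusted p = 8.37e-05). Por, the reductase that supplies electrons to all microsomal cytochromes P450, fell by 1.15, and the carboxylesterase Ces2a fell by 1.72. Cyp2b, Cyp2c and Ugt1a genes share sequence with close relatives, so their read assignment is uncertain.

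**Figure D3:**
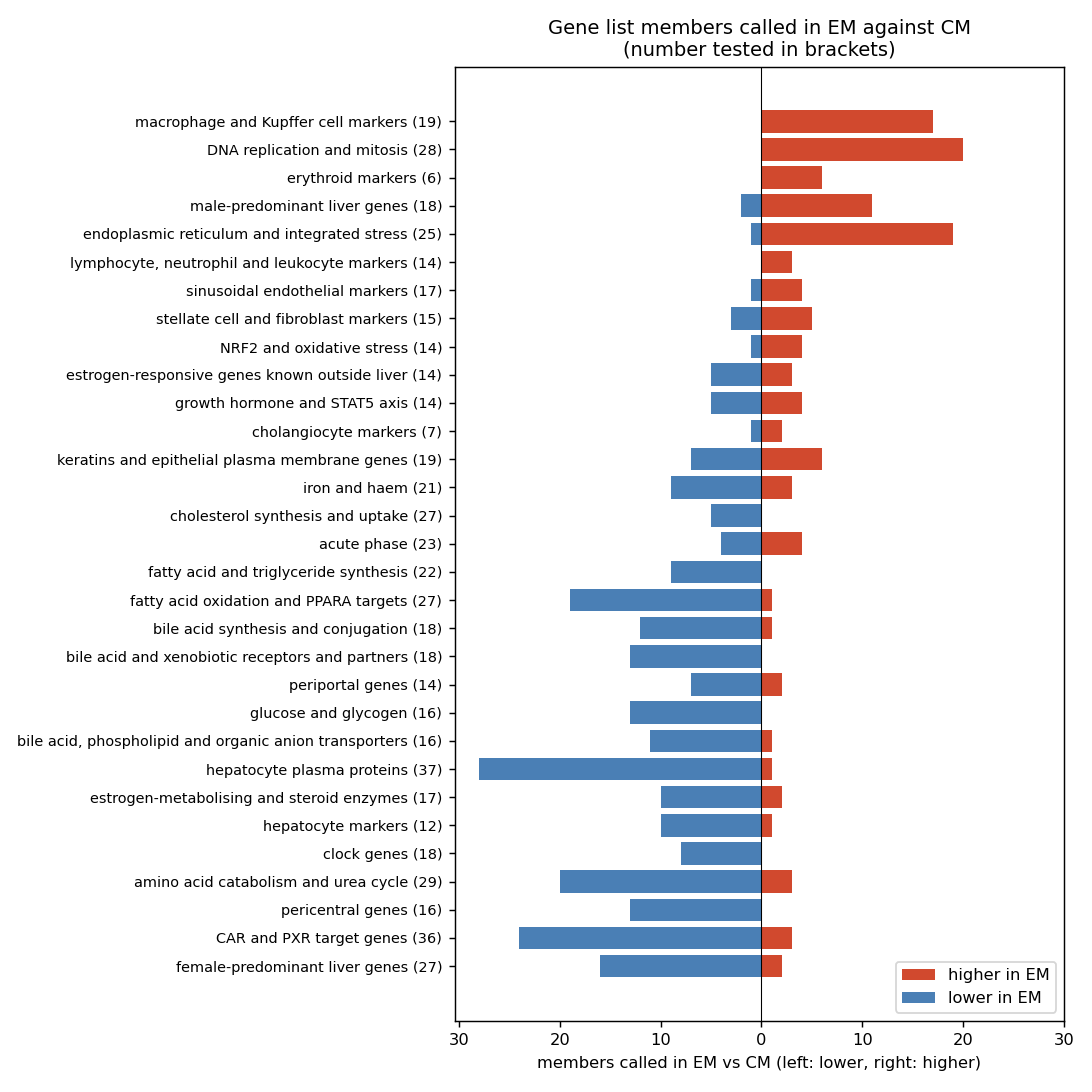
Number of members of each gene list called higher (right, red) and lower (left, blue) in EM than in CM, with the number tested in brackets and lists ordered by median log2 fold change. Macrophage, replication and erythroid lists hold only rises, and the lists of hepatocyte function hold mainly falls, with 28 of 37 plasma protein genes lower.

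Genes with sex-biased liver expression split by direction. Of 18 measured male-predominant genes, 11 rose and 2 fell, with a median of 1.20. Hsd11b1 was 1 of the 2 that fell, with a log2 fold change of -2.10 (adjusted p = 2.44e-07). Mup20, a major urinary protein, had 1545, 531, 879 and 1778 CPM in EM livers, against 83.3, 79.4, 117 and 144 CPM in CM livers, a log2 fold change of 3.48 ± 0.37 (adjusted p = 6.84e-06). Cyp4a12a, a fatty acid hydroxylase that male mice express, had 11.4, 6.34, 2.80 and 10.5 CPM in EM livers, against 0, 0.256, 0 and 0 CPM in CM livers; with 4 counts in all CM livers, that is a ratio of 115 with an interval of 44.6 to 423. All 4 came from CM replicate 2, so the ratio rests on that library, and the other CM livers were at 0. The female-predominant list had 16 falls and 2 rises among 27 genes, and its median was -1.63. Hao2, a hydroxyacid oxidase, had 0.0534, 0.305, 0.178 and 0.0537 CPM in EM livers, against 14.7, 29.8, 18.8 and 39.3 CPM in CM livers; the 11 counts in EM livers against 1651 in CM livers put CM livers higher by a ratio of 188 (interval 105 to 377). Cyp2b9 and Cyp2b13, female-predominant cytochromes, fell by 3.81 and 4.83, and Acot4, a thioesterase, fell by 1.94. Lifr, the leukemia inhibitory factor receptor, was 1 of the 2 female-predominant genes that rose: it had 1296, 1297, 1285 and 1547 CPM in EM livers, against 68.6, 100.3, 108 and 97.4 CPM in CM livers, a log2 fold change of 3.86. Without CM replicate 3, EM replicate 2 or EM replicate 3, 1 female-predominant gene rose. Medians in EV against CV were 1.54 for the male list and -2.27 for the female list. The sex of the mice is not in the labels.

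Liver sex bias is set by growth hormone acting through STAT5. Of 14 genes of that axis, 4 rose and 5 fell, with a median of -0.20 that became 0.18 under library totals, where 7 rose and 2 fell. Without CM replicate 1, 2 rose. Stat5a had 41.4, 84.8, 43.4 and 50.7 CPM in EM livers, against 6.16, 6.41, 7.41 and 3.89 CPM in CM livers, a log2 fold change of 3.21 (adjusted p = 4.80e-07), with EM replicate 2 the highest. The binding proteins Igfbp2 and Igfbp3 fell by 2.48 and 1.41. Igf1 had 337 ± 35.1 CPM in EM livers and 456 ± 40.2 CPM in CM livers (SD, n = 4 each) and fell by 0.44 (adjusted p = 0.00103), a call that was lost under library totals.

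Steroid-handling enzymes and estrogen-responsive genes gave a mixed picture. Of 17 enzymes of estrogen and steroid metabolism, 2 rose and 10 fell. Hsd17b2, which oxidises estradiol to estrone, had 420.0, 336, 332 and 362 CPM in EM livers, against 141, 142, 139 and 121 CPM in CM livers, a log2 fold change of 1.42 (adjusted p = 5.19e-07). Sult1a1, a phenol and estrogen sulfotransferase, fell by 2.27. Hsd11b1, which regenerates active glucocorticoid and is counted in the male-predominant list instead, fell by 2.10. Sult1e1, the estrogen sulfotransferase, had 2.88, 1.71, 2.62 and 4.24 CPM in EM livers, against 0.751, 11.6, 0.694 and 0 CPM in CM livers and was not called, with CM replicate 2 above all the rest. Without CM replicate 2 its log2 fold change was 2.62 and was called (adjusted p = 0.0150). The estrogen receptor gene Esr1 had 8.44, 8.90, 8.08 and 5.69 CPM in EM livers, against 8.79, 7.31, 8.02 and 8.10 CPM in CM livers, with overlap and no call (adjusted p = 0.826). Of 14 genes known as estrogen-responsive in other tissues, 3 rose, a share near the 19.4% of all genes tested. In that list 5 fell, among them Igfbp4, Pdzk1 and Agt by 1.09, 0.95 and 0.61, and the median was -0.02. Under library totals 6 rose and 4 fell.

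Many genes of hepatocyte metabolism fell. In fatty acid oxidation and PPARA targets 19 of 27 genes fell and 1 rose, with a median of -0.51 (8 fell and 3 rose under library totals). Fabp1, the liver fatty acid binding protein, had 2701, 2246, 1939 and 1897 CPM in EM livers, against 9150.1, 6906, 6191 and 8627 CPM in CM livers, a log2 fold change of -1.81 (adjusted p = 9.41e-06). Acadl and Eci1, enzymes of mitochondrial beta oxidation, fell by 1.12 and 0.95. In glucose and glycogen metabolism 13 of 16 fell and none rose (7 fell under library totals); Gckr, the glucokinase regulator, had 67.5, 71.7, 91.4 and 95.8 CPM in EM livers, against 157, 159.7, 187 and 193 CPM in CM livers, a log2 fold change of -1.10. Ppp1r3b, a glycogen-targeting phosphatase subunit, fell by 1.13. Fatty acid and triglyceride synthesis had 9 falls and no rise among 22; Dgat2, which makes triglycerides, Fads1, a desaturase, and Mlxipl, the carbohydrate response factor ChREBP, fell by 0.93, 1.42 and 0.91.

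Amino acid catabolism and the urea cycle had 20 falls and 3 rises among 29 genes, with a median of -0.91. Hpd, of tyrosine breakdown, had 568.7, 697, 857 and 916 CPM in EM livers, against 2213, 2079.7, 3006 and 2933 CPM in CM livers. The urea cycle enzyme Otc had 82.4, 86.8, 112 and 117 CPM in EM livers, against 222, 301, 293 and 342 CPM in CM livers. Neither gene overlapped between groups, and their log2 fold changes were -1.75 ± 0.17 and -1.54 ± 0.15. Gnmt, which buffers S-adenosylmethionine, and Agxt, which detoxifies glyoxylate, fell by 1.84 and 1.63. Pericentral genes, expressed around the central vein, fell in 13 of 16 cases and rose in none (8 fell and 1 rose under library totals). Cyp2e1 had 606, 751, 1234 and 1305 CPM in EM livers, against 4936, 2364, 5098 and 4890.5 CPM in CM livers, with CM replicate 2 the lowest CM liver and no overlap. Periportal genes fell in 7 of 14 cases and rose in 2 (4 without CM replicate 2), with Pigr, the receptor that carries IgA into bile, at -2.80 ± 0.26.

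Cholesterol synthesis and uptake had 5 falls and no rise among 27 genes, a share of 18.5% lower that is near the 18.6% of all genes tested, where EV against CV had 22 falls. Tm7sf2, a sterol reductase, had 34.9, 37.2, 57.9 and 55.5 CPM in EM livers, against 210.1, 79.8, 239 and 239.7 CPM in CM livers, and Sc5d, a sterol desaturase, had 213, 214, 296 and 249.9 CPM in EM livers, against 447, 268, 573.5 and 758 CPM in CM livers. CM replicate 2 was the lowest CM liver for both, still above the EM livers for Tm7sf2 and within their range for Sc5d. Their log2 fold changes were -2.05 ± 0.28 and -1.07 ± 0.24. Without CM replicate 2, 16 of the 27 fell, so that 1 control liver decides this count; the summed level of the list ran from 3579 to 4713 CPM in EM livers and from 2838 to 6959 CPM in CM livers. No gene of this list had a called difference between the estrogen effects.

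Genes for secreted plasma proteins fell in 28 of 37 cases and 1 rose (2 rose without CM replicate 1 or CM replicate 2), with a median of -0.81. Serpinc1 (antithrombin) had 1179, 1502, 1665 and 1717 CPM in EM livers, against 3690.2, 3820.0, 3932 and 3788 CPM in CM livers, and F10 (coagulation factor X) had 177, 197, 197 and 218 CPM in EM livers, against 526, 442, 537 and 459.7 CPM in CM livers. Both had tight groups without overlap, with log2 fold changes of -1.33 ± 0.10 (adjusted p = 2.92e-07) and -1.32 ± 0.10 (adjusted p = 3.12e-07). Prothrombin (F2), Apoa1, Ttr and Serpina1a fell by 1.10, 1.91, 1.08 and 1.50. Serpina1a belongs to a cluster of near-identical genes, so its reads may be split. The acute phase list had 4 rises and 4 falls among 23, near the shares of all genes tested (19.4% higher and 18.6% lower). Saa3 had 134, 59.4, 68.4 and 118 CPM in EM livers, against 27.8, 20.9, 27.2 and 14.8 CPM in CM livers, a log2 fold change of 2.07, and Hamp, the iron hormone hepcidin, had 1169, 2960.1, 1565 and 1653 CPM in EM livers, against 4658, 8559, 3731 and 4431 CPM in CM livers, a log2 fold change of -1.54 (adjusted p = 0.00755).

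Most endoplasmic reticulum chaperone and stress genes rose. Of 25 measured, 19 rose and 1 fell, with a median of 0.96; in EV against CV 16 rose with a median of 0.78. Hspa5 (BiP), the main chaperone of the compartment, had 2345, 1633, 1633 and 1390.1 CPM in EM livers, against 457, 655, 469 and 387 CPM in CM livers, a log2 fold change of 1.83 ± 0.22 (adjusted p = 1.78e-05). Creld2, an early unfolded protein response gene, had 484, 239, 191 and 184 CPM in EM livers, against 42.3, 52.8, 25.8 and 25.8 CPM in CM livers, a log2 fold change of 2.90 (adjusted p = 9.35e-05). EM replicate 1 was the highest for both and the groups did not overlap. Hsp90b1 (GRP94) and Ero1lb, an oxidase for disulfide bonds, rose by 1.29 and 1.67. In EV against CV these 4 genes had 1.19, 1.66, 1.01 and 1.30, and none of the differences was called (lowest adjusted p = 0.346, for Creld2). Of 14 NRF2 and oxidative stress genes 4 rose and 1 fell (7 and 0 under library totals), with Cbr3, G6pdx, Gpx2 and Srxn1 at 2.47, 1.61, 3.17 and 0.72.

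**Figure D4:**
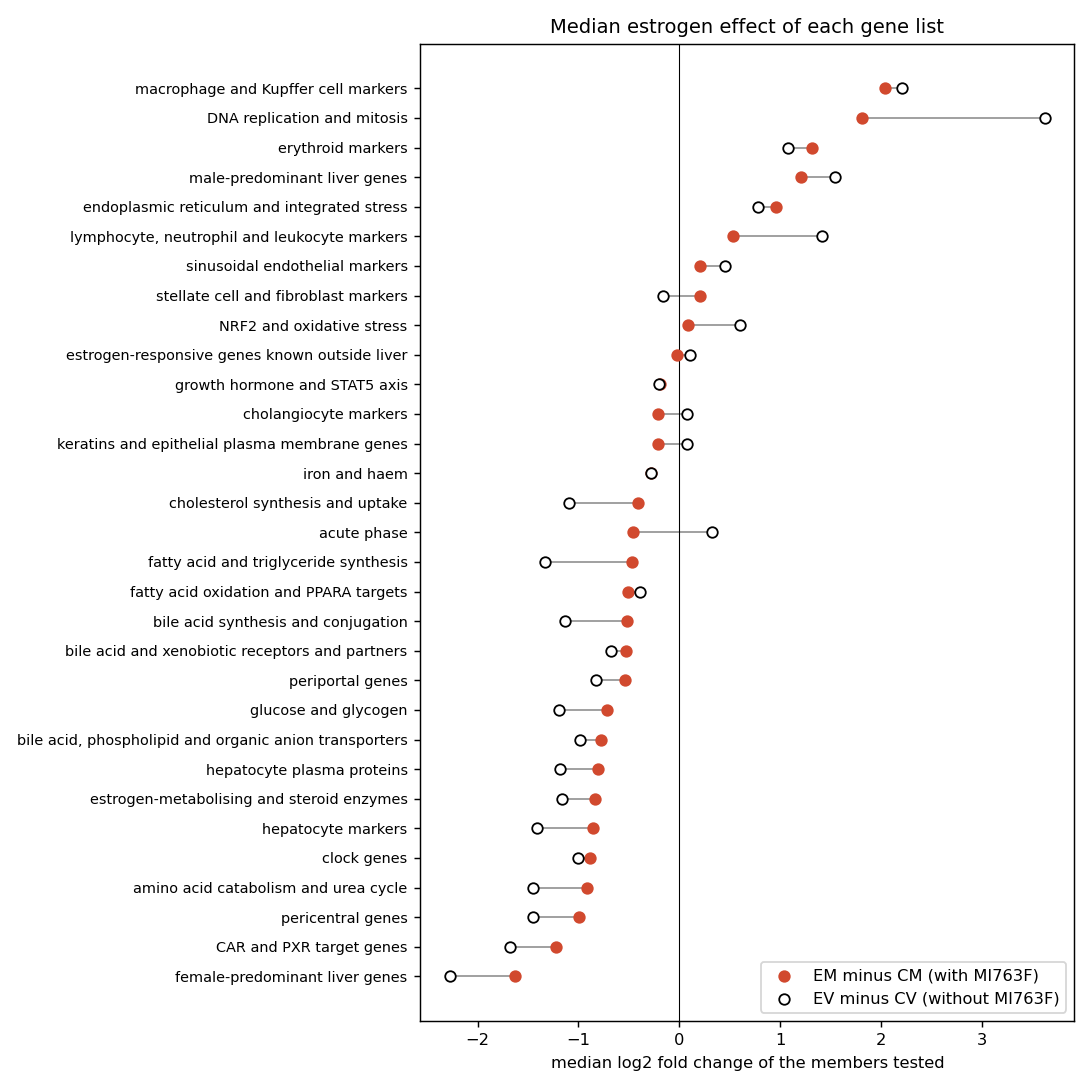
Median log2 fold change of the tested members of each gene list in EM minus CM (red) and in EV minus CV (open circles), joined by a line. Both medians of most lists lie on the same side of 0, the replication list is at 1.81 with MI763F and 3.62 without it, and the endoplasmic reticulum list is at 0.96 and 0.78.

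Genes of DNA replication and mitosis rose in 20 of 28 cases and none fell. Mki67, a marker of cycling cells, had 6.41, 2.20, 1.78 and 2.58 CPM in EM livers, against 0.376, 0.449, 0.309 and 0.315 CPM in CM livers, a log2 fold change of 3.14 (adjusted p = 2.19e-05). EM replicate 1 was well above the other EM livers, and all EM livers were above all CM livers. The same library was highest for Birc5 (survivin), a mitotic regulator, with 20.7, 4.64, 5.42 and 5.80 CPM in EM livers, against 1.13, 1.22, 0.617 and 1.05 CPM in CM livers, for Mcm5, a replication licensing factor, at 13.9 CPM, and for Ccna2 (cyclin A), at 9.02 CPM. Without EM replicate 1, 13 of the 28 rose and 1 fell; 1 also fell without CM replicate 1 or CM replicate 2. In EV against CV 27 rose and 1 fell with a median of 3.62, against 1.81 in EM against CM; no member had a called difference between the effects.

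Macrophage markers were higher in every EM liver. Of 19 measured markers of macrophages and Kupffer cells, 17 rose and none fell, and their summed level was 1972 to 3261 CPM in EM livers and 424 to 847 CPM in CM livers. Clec4f, specific to Kupffer cells, had 457, 429, 442 and 399 CPM in EM livers, against 104, 140.4, 115 and 82.9 CPM in CM livers, a log2 fold change of 1.97 (adjusted p = 6.88e-07). Csf1r, the receptor that macrophages need to survive, had 143, 119.7, 129.5 and 89.1 CPM in EM livers, against 20.1, 24.4, 21.1 and 12.9 CPM in CM livers, a log2 fold change of 2.62. Fcgr1 (an Fc receptor) and C1qb (complement) rose by 2.88 and 2.05, and Cd14, the endotoxin coreceptor of the acute phase list, by 3.46. In bulk tissue, more cells of a type and more RNA per cell cannot be told apart. The hepatocyte markers fell over the same libraries, with 10 of 12 lower and 1 higher (6 lower and 1 higher under library totals). The part of cell composition in the falls of hepatocyte genes was not tested.

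Markers of other cells were read in the same way. All 6 measured erythroid markers rose, among them Hbb-bt with 214, 204, 269 and 113 CPM in EM livers, against 41.3, 71.4, 76.5 and 67.2 CPM in CM livers, Hba-a1 at 1.32 ± 0.23 and Car2 at 1.77 ± 0.24; globin genes have close copies. Of 14 lymphocyte and neutrophil markers 3 rose, a share near the 19.4% of all genes tested: Ptprc, the common leukocyte antigen, by 2.18, Cxcr2, a neutrophil chemokine receptor, by 1.34, and S100a9, a neutrophil calcium-binding protein, by 1.57. The S100a9 call was lost without CM replicate 1, CM replicate 3, EM replicate 1 or EM replicate 2. The count was 8 without CM replicate 2, 7 without EM replicate 4 and 10 under library totals. Endothelial markers had 4 rises among 17, again near the 19.4% of all genes (7 without CM replicate 2 and 8 under library totals), and 1 fall that was lost without CM replicate 2, EM replicate 2 or EM replicate 3 and under library totals, with Cdh5 and Lyve1 at 1.38 and 1.29. Of 15 stellate and fibroblast markers 5 rose, with Col1a1 and Col3a1 at 1.44 and 1.08. In the same list 3 fell, with Ecm1 at -1.10, a share near the 18.6% of all genes tested. Under library totals 6 rose and 1 fell. Of 7 cholangiocyte markers, Sox9 and Spp1 rose by 2.04 and 1.19, and Epcam, at 1.41 ± 0.225 CPM in EM livers and 2.35 ± 0.764 CPM in CM livers (SD, n = 4 each), fell by 0.73 but lost its call without CM replicate 3 or EM replicates 1, 2 or 4. Of 2 measured pancreatic acinar markers, Cela2a rose, at 2.23 ± 0.342 CPM in EM livers and 0.383 ± 0.285 CPM in CM livers (SD, n = 4 each).

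Keratins and epithelial membrane genes had 6 rises and 7 falls among 19 (7 and 4 under library totals), and beside Krt4 and Krt79 the connexin Gjb1 fell by 0.78 and the annexin Anxa5 rose by 1.54. Iron and haem genes had 3 rises and 9 falls among 21, turned to 7 and 4 under library totals; Tfr2, a transferrin receptor that senses iron, had 163, 206, 191 and 201 CPM in EM livers, against 419, 254, 388 and 286 CPM in CM livers, a log2 fold change of -0.83 (adjusted p = 3.06e-04). Alad and Fech, of haem synthesis, fell by 0.64 and 0.62, and the Fech call was lost under library totals. Clock genes fell in 8 of 18 cases, a count that was 13 without CM replicate 2, 3 without CM replicate 4 and 4 without EM replicate 1, and under library totals 5 fell and 3 rose. Bhlhe40, a clock repressor, had 90.7, 93.5, 94 and 62.3 CPM in EM livers, against 271, 231, 200.3 and 272 CPM in CM livers, a log2 fold change of -1.52 (adjusted p = 9.25e-05), and Nr1d1 (REV-ERB alpha) had 12.3, 17.2, 34.7 and 21.5 CPM in EM livers, against 108, 79.4, 36.7 and 106 CPM in CM livers, a log2 fold change of -1.94. The labels do not give the hour of collection.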

How the data were processed

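Liver polyadenylated RNA was sequenced in 16 libraries, 4 in each of 4 groups named in the sample titles. The submitters' processing notes name STAR, Salmon and the GRCm39 build, without roles; strand handling is not given in the sources used here. Estimated counts, as deposited by the authors, cover 13006 genes and are all whole numbers. In genes with a 0 in some library, the smallest value above 0 had a median of 84.5 for exon lengths under 300 bp and of 1 for those over 4000 bp, as for values rescaled by length, so floors and counting intervals are approximate. No pair of libraries had identical values in more than 1.62% of genes above 10 counts. Symbols for 12692 identifiers came from GENCODE M21, an annotation of an earlier build.

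After filterByExpr (12918 genes) and TMM scaling, a robust quasi-likelihood model (glmQLFit, edgeR 4.0.16, R 4.3.3) was fitted to all groups with 12 residual degrees of freedom, and p-values were adjusted by Benjamini-Hochberg at 0.05. The script was tested on simulated data. Each standard error was derived from the fold change and its F statistic. Genes named were the 12 largest rises and 12 largest falls whose libraries did not overlap and whose log2 CPM averaged 1 or more, up to 4 called members of each of 32 lists by smallest p, a fixed set of bile acid and CAR genes and entries with human-format identifiers, and the 8 largest differences of each sign between both estrogen effects. A few genes the rule names are not reported here. The comparison, its lists and this rule were chosen with earlier results of these data known. Alternatives were RLE factors, library totals, other filters, DESeq2 1.42.0, limma 3.58.1 with a trend, the groups compared alone, the replicate number as a block, and leaving out each library. Another MI763F dose named in the labels was not analysed here.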

Additional observations from a re-analysis of the deposited data

Results flagged for a closer look

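In 21 of 266 groups checked (7.89%, for 133 genes named in the text in EM and CM livers), 1 library lay far from the other 3. The cutoff has a nominal chance rate of about 1 in 20, which was not estimated from these data. Genes share libraries, so the groups are not independent and both shares cannot be compared. In EM livers, replicate 1 was high for Birc5 (20.7 CPM), Ccna2 (9.02 CPM) and Mcm5 (13.9 CPM) and low for Sult2a4 (11.2 CPM). Replicate 2 was high for Acot3 (6.71 CPM) and Slc34a2 (245 CPM), and replicate 3 for Rgs16 (6.31 CPM). Replicate 4 was high for Lifr (1547 CPM) and low for Bhlhe40 (62.3 CPM) and Lyve1 (9.83 CPM). In CM livers, replicate 2 was high for Cyp2b10 (1691 CPM), Hsp90b1 (597 CPM), Srxn1 (43.7 CPM), Sult1e1 (11.6 CPM), Tff3 (4.36 CPM) and Cyp4a12a (0.256 CPM, the only CM liver above 0) and low for Cyp2e1 (2364 CPM). Replicate 1 was low for Abcc2 (175 CPM) and replicate 4 for Hsd17b2 (121 CPM), while replicate 3 was high for Ugt1a1 (932 CPM) and Slc34a2 (0.617 CPM).

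Among the 133 genes checked, 11 had an estrogen effect that differed between mice with and without MI763F by edgeR's test of the difference itself. The log2 differences, (EM minus CM) minus (EV minus CV), were 3.91 for Sult2a1, 3.34 for Slc22a26, 2.89 for Sult2a5, 2.63 for Sult2a6, 2.34 for Sult2a4, 2.28 for Sult2a2, 1.62 for Ces1d and 1.20 for Ces1c. They were -1.46 for St5, -0.85 for Ufm1 and -0.75 for Myl12b.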

How the results depend on the processing

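Scaling by library totals changed the balance of calls: in EM against CM 5889 genes were higher and 935 lower, and in EV against CV 7048 and 1329. Under it, the called falls of Nr1i2 and ENSG00000144852 turned to 0.0451 and 0.00357, and genes with no call changed sign too: Cyp7a1 to 0.0341, Cyp27a1 to 0.174, Nr1h4 to 0.205, Esr1 to 0.328, Sult1e1 to 0.167 and Ufm1 to 0.155. The counts of EM against CM stayed within 1.5 times under every other setting; leaving out each library gave 2120 to 2558 higher, 2075 to 2475 lower and 1657 to 2047 changed at least 2-fold. In EV against CV that gave 2931 to 3153 higher and 2937 to 3085 lower. The differences between the estrogen effects were less stable. Positive ones numbered 298 with DESeq2, 20 with limma and 67 with the replicate block, and 7 to 157 when a library was left out. Negative ones numbered 152 with DESeq2, 10 with limma, 12 with the replicate block and 14 under library totals, and 2 to 51 when a library was left out. The cause was not tested.

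Replicate numbers are not stated to pair the samples, and pairing was not tested. Between EM and CM, deviations of same-numbered libraries correlated at 0.0104 to 0.0957, and those of differently numbered ones at -0.0934 to 0.0683. Between EV and CV these ranges were -0.0502 to -0.00493 and -0.0205 to 0.0543. With the replicate block, EM against CM had 2451 genes higher and 2361 lower, and 159 of the 160 single genes checked kept their direction and side of the threshold; Sult1e1, not called, turned to 0.826, and to 1.52 with limma. Leaving out each library gave -0.611 to 2.62 for Sult1e1, -0.674 to 0.353 for Cyp7a1 and -0.121 to 0.0624 for Esr1. Depth limits the folds of genes near 0 counts in either group.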
